A study of Mus musculus with 2 samples.

Results

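The genes described here encode inducible brakes on cytokine and MAP kinase signalling: 4 members of the suppressor of cytokine signalling (SOCS) family (Socs1, Socs2, Socs3 and Cish) and 6 dual-specificity MAP kinase phosphatases (Dusp1, Dusp2, Dusp4, Dusp5, Dusp6 and Dusp16). They were chosen by name, as all probe sets whose platform annotation gives 1 of these 10 symbols and no other. This found 18 probe sets for the 10 members, among 18093 genes with at least 1 probe set of their own outside the cross-hybridizing _x_at class. Gene expression was measured in peritoneal macrophages of C57BL/6J mice, taken 3 days after thioglycolate injection, which recruits macrophages to the peritoneum. Cells of the first group were treated with LPS+CPN+GGOH and cells of the second with LPS+CPN, on 1 array each. LPS is lipopolysaccharide, the Toll-like receptor 4 agonist of Gram-negative bacteria, while GGOH stands for geranylgeraniol, an isoprenoid alcohol that cells can turn into the lipid used for protein geranylgeranylation. The labels do not spell out CPN, and since both groups carry it together with LPS, neither group is untreated. The labels used here state no age, dose or treatment time, and do not say whether the cultures shared animals.

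Both families work as negative feedback. Cytokine receptors activate JAK kinases and STAT transcription factors, the STATs switch on SOCS genes, and SOCS proteins then bind the receptor or the kinase through an SH2 domain and bring in a ubiquitin ligase through their SOCS box. Dual-specificity phosphatases of the MAP kinase group remove the phosphates from the threonine and the tyrosine of the activation loop of ERK, p38 or JNK, and several are themselves induced by the kinases they switch off. In macrophages exposed to LPS, some members of both families, such as Socs1 and Dusp1, limit the size and length of the cytokine response.

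With 1 array per condition there is no replicate and no test, and every difference describes these 2 arrays. Signals are MAS5 intensities in arbitrary units, and the floor below which a signal was not treated as measured was 59.9, the 50th percentile of all non-control signals of both arrays. As a scale of error, the log2 ratios of different probe sets for the same gene had a pooled SD of 0.45 (4166 genes, 10774 probe sets). This SD covers differences between probe sets within these arrays and leaves out the spread between cultures. Over 11518 genes above the floor on at least 1 array, the median log2 ratio of LPS+CPN+GGOH over LPS+CPN was -0.01, with quartiles at -0.28 and 0.29. All 10 members were above the floor on at least 1 array, and 9 of them on both.

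The SOCS members differed in opposite directions between the arrays, while no DUSP member reached 2-fold. Socs3 and Cish were lower with LPS+CPN+GGOH, by 3.40-fold and about 2-fold, and Socs2 was 3.16-fold higher. Socs1 was lower by at least 1.60-fold, known only as a bound. Among the phosphatases, Dusp5 and Dusp6 were 1.55-fold and 1.68-fold higher, and Dusp1 was 1.55-fold lower. At 2-fold or more, 2 of the 10 members were lower, against 1.66% of all measured genes, and 1 was higher, against 5.50%. With 10 genes, counts of 2 and 1 say little beyond the named genes themselves.

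**Figure D1:**
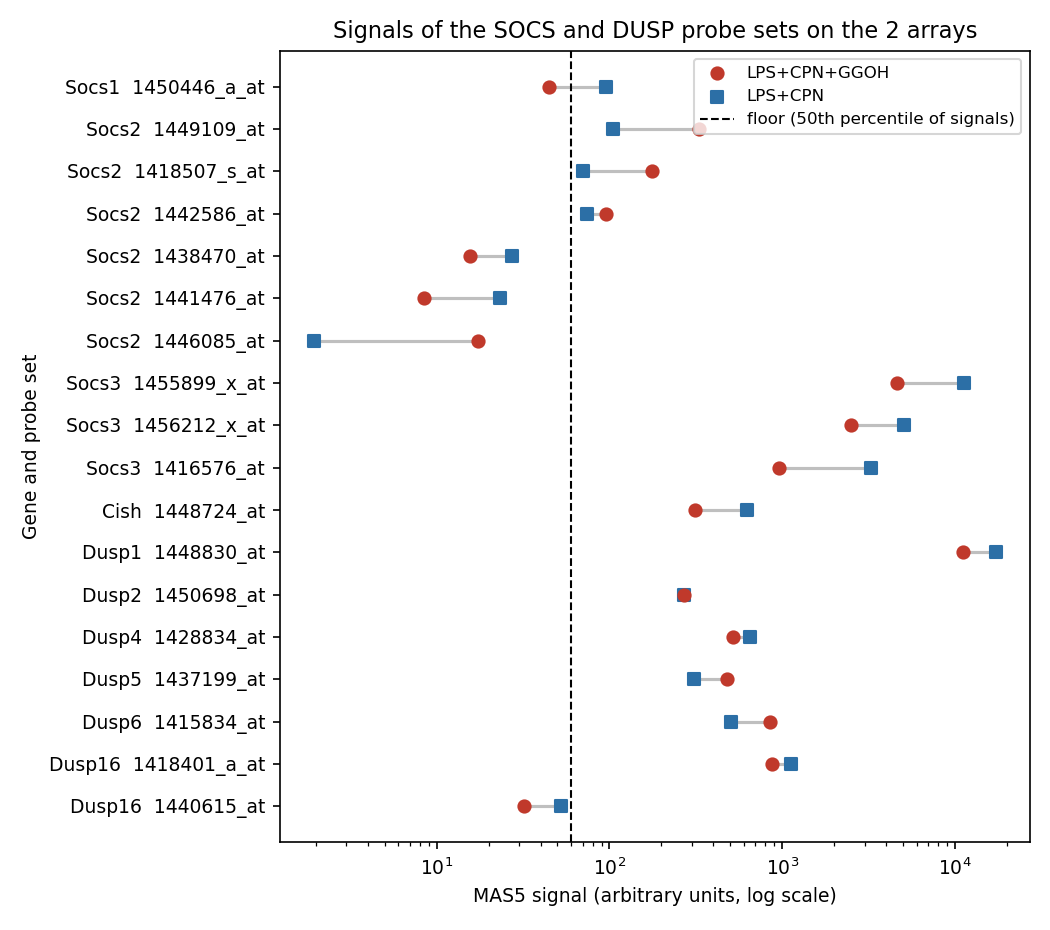
MAS5 signal (arbitrary units, log axis) of all 18 SOCS and DUSP probe sets, with a red circle for the LPS+CPN+GGOH array, a blue square for the LPS+CPN array and a dashed line at the floor of 59.9. All 3 Socs3 probe sets have the LPS+CPN+GGOH signal left of the LPS+CPN signal, the 3 Socs2 probe sets above the floor have it to the right, and 4 probe sets lie below the floor on both arrays.

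Socs3 encodes the suppressor that binds the shared receptor chain gp130 and cuts short signalling by IL-6 and related cytokines. The probe set used as the gene's value had a signal of 962 with LPS+CPN+GGOH and 3271 with LPS+CPN, a log2 ratio of -1.77. The 2 other Socs3 probe sets belong to the _x_at class, whose probes may also bind unrelated transcripts. The brighter had 4606 with LPS+CPN+GGOH and 11326 with LPS+CPN, a log2 ratio of -1.30, and the dimmer had 2491 with LPS+CPN+GGOH and 5057 with LPS+CPN, a log2 ratio of -1.02. All 3 were thus at least 2-fold lower, the probe set used by the most. Of 11518 measured genes, 16 had a lower ratio than Socs3 (0.139%).

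Cish encodes the SOCS protein that is induced by STAT5 and limits signalling through receptors of the growth hormone, erythropoietin and interleukin-2 families. Its only probe set had a signal of 312 with LPS+CPN+GGOH and 625 with LPS+CPN, a log2 ratio of -1.003. This value lies on the 2-fold line, and the call depends on the setting: with the arrays scaled to equal macrophage markers the log2 ratio was -0.78, and with arrays divided by their medians it was -1.17. Among measured genes, 1.62% had a lower ratio than Cish.

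Socs1 encodes the suppressor that inhibits JAK kinases directly and restrains interferon signalling and LPS responses. Its only probe set had a signal of 44.9 with LPS+CPN+GGOH, under the floor, and 95.9 with LPS+CPN. Against the floor it was at least 1.60-fold lower. With the floor at the 25th percentile the 2 signals themselves gave a log2 ratio of -1.10, past 2-fold.

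Socs2 encodes a suppressor best known for limiting growth hormone signalling. It had 6 probe sets, of which 3 were above the floor on both arrays. The brightest, used for the gene, had 329 with LPS+CPN+GGOH and 104 with LPS+CPN, a log2 ratio of 1.66. The next had 176 with LPS+CPN+GGOH and 70.7 with LPS+CPN (log2 ratio 1.31), and the dimmest had 95.0 with LPS+CPN+GGOH and 74.0 with LPS+CPN (log2 ratio 0.36). The 3 measured probe sets thus had the same sign, but 1 of them stayed within the SD of 0.45. The other 3 had signals of 8.41 to 17.2 with LPS+CPN+GGOH and 1.94 to 27.2 with LPS+CPN, all under the floor, and give no ratio. Of the measured genes, 2.41% had a higher ratio than Socs2. Counted as probe sets, 2 of the 14 measured ones of all members were at least 2-fold higher, against 6.29% of all measured probe sets, and 4 were lower, against 1.58%. The 2 higher ones were both of Socs2, and the 4 lower ones were all 3 of Socs3 and that of Cish. This count therefore repeats the same genes and adds no further member to the count by gene. High ratios were common among dim genes. With measured genes split by mean signal into 3 equal parts, the dim part, which holds Socs1 and Socs2, had 11.8% at least 2-fold higher and 1.93% lower. The middle part, which holds Cish and all DUSP members but Dusp1, had 3.91% higher and 1.72% lower. The bright part, which holds Socs3 and Dusp1, had 0.781% higher and 1.33% lower.

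The 2 extreme SOCS members lay far apart. The log2 ratio of Socs2 minus that of Socs3 was 3.43, a 10.7-fold difference between genes of the same family, and that of Socs2 minus that of Cish was 2.66 (6.33-fold). If probe sets of different genes vary as those of the same gene do, a difference between 2 genes fixed in advance has an SD of 0.63. Socs2 and Socs3 were instead picked as the highest and lowest members. The SD therefore does not measure how unusual their difference is, and it leaves out the spread between cultures. A scaling that multiplies a whole array leaves the differences between these genes as they are.

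**Figure D2:**
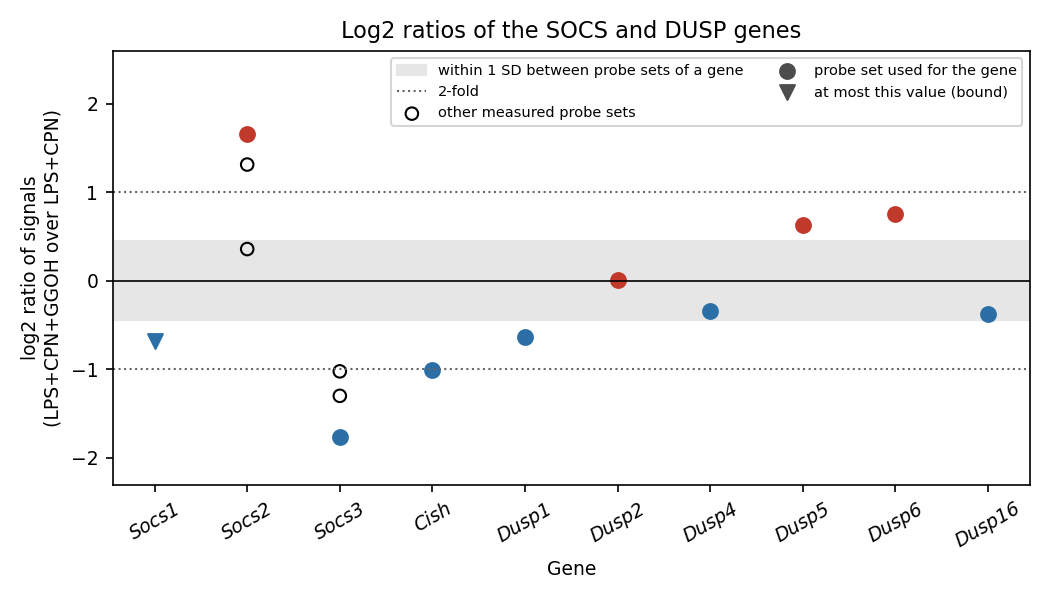
Log2 ratio of signals, LPS+CPN+GGOH over LPS+CPN, for each member, with filled symbols for the probe set used for the gene (red above 0, blue below 0, a triangle where the value is a bound), open circles for its other measured probe sets, a grey band of 1 SD (0.45) and dotted lines at 2-fold. Socs3 and Socs2 lie outside the 2-fold lines on opposite sides, Cish lies on the lower line, and the 6 DUSP genes lie between the lines.

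Dusp1, also called MKP-1, is a nuclear phosphatase that switches off p38 and JNK and restrains TNF and IL-6 in LPS-treated macrophages. Its single probe set was bright on both arrays, with 11102.5 with LPS+CPN+GGOH and 17198.5 with LPS+CPN, a log2 ratio of -0.63. Dusp2 (PAC-1), a nuclear phosphatase induced in activated leukocytes, had 271 with LPS+CPN+GGOH and 268 with LPS+CPN, a log2 ratio of 0.02, whose sign changes with the scaling. Dusp4 (MKP-2), another inducible nuclear phosphatase, had 517 with LPS+CPN+GGOH and 652 with LPS+CPN, a log2 ratio of -0.34, within the SD between probe sets.

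Dusp5 is a nuclear and Dusp6 (MKP-3) a cytoplasmic phosphatase, and both act on ERK and are induced by ERK activity. Dusp5 had 481 with LPS+CPN+GGOH and 310 with LPS+CPN, a log2 ratio of 0.63. Dusp6 had 855 with LPS+CPN+GGOH and 508 with LPS+CPN, a log2 ratio of 0.75. Both were higher under every setting tried, with log2 ratios of 0.36 to 0.86 for Dusp5 and 0.58 to 0.97 for Dusp6, always short of 2-fold. Dusp16 (MKP-7), which acts on JNK and p38, had 871 with LPS+CPN+GGOH and 1128 with LPS+CPN on its brighter probe set, a log2 ratio of -0.37. The second Dusp16 probe set was under the floor on both arrays, with 32.1 with LPS+CPN+GGOH and 52.2 with LPS+CPN.

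Dusp6 and Dusp5 were therefore the DUSP members with the highest ratios. Of the other MAP kinase phosphatases, Dusp10 had a log2 ratio of 0.58, Dusp7 one of 0.27 and Dusp8 one of -0.45. Dusp9 was at least 1.09-fold higher. Whether the ratios follow the kinase that a phosphatase acts on was not tested. The log2 ratio of Dusp6 minus that of Dusp1 was 1.38 (2.61-fold), and that of Dusp5 minus that of Dusp1 was 1.27 (2.40-fold), each with 1 probe set per gene. The 6 DUSP members had a median log2 ratio of -0.16, with 3 above 0 and 3 below, and the 4 SOCS members one of -0.84, with Socs1 taken at its bound. The median of all 10 members was -0.35, or -0.34 relative to the median of all measured genes. At 1.5-fold or more, 4 members were lower (Socs1, Socs3, Cish and Dusp1), against 7.82% of measured genes, and 3 were higher (Socs2, Dusp5 and Dusp6), against 12.5%.

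**Figure D3:**
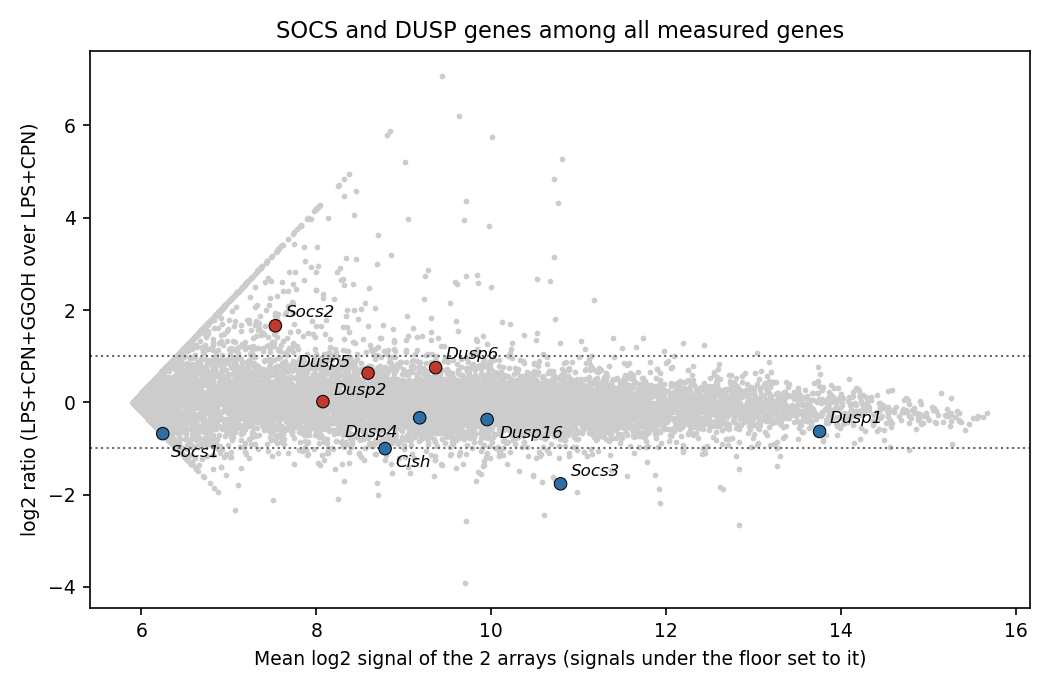
Log2 ratio, LPS+CPN+GGOH over LPS+CPN, against the mean log2 signal of both arrays for 11518 measured genes (grey), with the 10 members as larger points (red above 0, blue below 0) and dotted lines at 2-fold. Socs3 stands below most bright genes, Socs2 lies at the dim end where many genes are above the upper line, and the straight edges at the left are genes under the floor on 1 array.

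Promoter windows were available in a RefSeq table (build GRCm38.p6) for 8 of the 10 members, each with 250 bases before and 50 after the annotated start. Socs2 and Dusp4 had no entry. Both strands were searched for the STAT site TTCNNNGAA (GAS), the cAMP response element TGACGTCA and its core TGACG, the AP-1 site TGANTCA, the ETS core CCGGAAG, the NF-kB site and the serum response factor site (CArG box). The GAS letters were found in 2 of 8 members, Socs3 and Cish, against 8.30% of 32851 promoter windows of the same length. Socs3 and Cish were also the 2 members at least 2-fold lower, Cish only just. However, the motifs were chosen after the member values were seen, and Socs2 could not be searched. A link between these letters and the ratios was not tested. The CArG box was found in Dusp5 (1 of 8, against 1.63% of all windows) and the full cAMP response element in Dusp1 (1 of 8, against 1.79%). The core TGACG, which the full element contains, was found in 5 of 8, against 20.8%. AP-1, NF-kB and ETS letters were found in 0 of 8, against 7.81%, 8.46% and 8.86% of all windows. The windows with a GAS site, a full cAMP response element or a CArG box are shown because they hold the letters named here, with the matches in capitals. The Socs3 window is chr11:117969367-117969616 on the minus strand, with its match starting at position -154 from the start site. The Cish stretch is chr9:107296653-107296680 on the plus strand, from position -6 to 22, with 2 matches that start at positions 1 and 12. The Dusp1 window is chr17:26508473-26508722 on the minus strand, with its match at position -143. The Dusp5 window is chr19:53528895-53529144 on the plus strand, with 2 adjoining matches that start at positions -82 and -72.
Socs3: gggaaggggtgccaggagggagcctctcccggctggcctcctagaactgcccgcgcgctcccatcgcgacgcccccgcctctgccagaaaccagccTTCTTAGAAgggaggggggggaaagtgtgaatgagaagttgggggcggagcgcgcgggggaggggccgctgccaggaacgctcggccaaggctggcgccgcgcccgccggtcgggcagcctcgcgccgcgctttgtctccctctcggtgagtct
Cish: ccagttTTCCTGGAAagTTCTTGGAAat
Dusp1: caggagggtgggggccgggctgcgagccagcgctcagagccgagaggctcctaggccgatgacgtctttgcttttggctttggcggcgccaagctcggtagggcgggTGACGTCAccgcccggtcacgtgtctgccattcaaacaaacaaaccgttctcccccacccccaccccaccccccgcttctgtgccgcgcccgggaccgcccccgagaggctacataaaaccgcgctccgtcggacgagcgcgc
Dusp5: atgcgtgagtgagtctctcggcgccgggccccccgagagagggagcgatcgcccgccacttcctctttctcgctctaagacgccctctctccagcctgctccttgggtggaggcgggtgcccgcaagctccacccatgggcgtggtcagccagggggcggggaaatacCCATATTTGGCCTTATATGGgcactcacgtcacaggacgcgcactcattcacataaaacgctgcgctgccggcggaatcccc
A match describes these letters only and does not show that a factor bound there.

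The pathway around the SOCS members was read from gene lists, whose counts stand beside the 5.50% of all measured genes at least 2-fold higher and the 1.66% lower. Among ligands of JAK-coupled receptors, 12 of 22 genes were measured, 3 were at least 2-fold higher and 1 was lower. Il6, whose signal Socs3 limits, had 2434 with LPS+CPN+GGOH and 430 with LPS+CPN, a log2 ratio of 2.50. Lif, of the same cytokine family, had a log2 ratio of 1.48, and Csf3 (granulocyte colony-stimulating factor) was at least 2.87-fold higher. Il10, the anti-inflammatory cytokine that induces Socs3 through STAT3, had 22.9 with LPS+CPN+GGOH and 161 with LPS+CPN and was at least 2.69-fold lower. Csf3 was above the floor only with LPS+CPN+GGOH and Il10 only with LPS+CPN, so each could come out only in the direction found. The ratio of Socs3 thus had the same sign as the bound for Il10 and the opposite sign to Il6 and Lif. Other ligands of the Il6 family lay on both sides. Osm (log2 ratio -0.20) and Il11 (at least 1.19-fold lower) had the sign of Socs3, and Clcf1 (0.26) the opposite sign. Whether any of these cytokines changed Socs3 was not tested. When the floor was moved to the 75th percentile, 6 ligands stayed measured, 1 of them at least 2-fold higher and none lower. At the 25th percentile 18 were measured, 5 of them higher and 4 lower.

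Of 21 receptor genes, 2 were at least 2-fold higher and 1 lower. The 2 higher genes were above the floor only with LPS+CPN+GGOH, so they could only come out higher. Osmr, the oncostatin M receptor chain that pairs with gp130, was at least 8.34-fold higher, and Ghr, the growth hormone receptor that Socs2 restrains, was at least 4.04-fold higher, with 242 with LPS+CPN+GGOH and 43.6 with LPS+CPN. Il15ra, the alpha chain of the interleukin-15 receptor, had a log2 ratio of -1.70, but fell short of 2-fold when its probe sets were summarised by their median. Il6ra, the ligand-binding chain for IL-6, had a log2 ratio of -0.80. The list's median was -0.04 and its sign changed with the scaling. At the 75th-percentile floor no receptor gene was 2-fold higher, and at the 25th 2 were lower.

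None of 9 measured JAK and STAT genes passed 2-fold. The largest differences were those of Jak3 (log2 ratio -0.78), Stat5b (-0.46), Tyk2 (-0.42) and Stat5a (-0.37). Stat3, the main activator of Socs3, had 6083 with LPS+CPN+GGOH and 7029 with LPS+CPN, a log2 ratio of -0.21. After quantile normalization 1 gene of this list was at least 2-fold lower. Other inhibitors of JAK and STAT signalling had 12 of 13 log2 ratios below 0, a median of -0.36, and 0 genes past 2-fold. Among all measured genes 5918 of 11518 log2 ratios were below 0, and among macrophage markers 10 of 15. With equal macrophage markers the median of this list was -0.14. Ptpn2 (-0.92) and Ptpn1 (-0.83), phosphatases that act on JAKs and STATs, had the lowest ratios, followed by the ubiquitin ligase gene Cblb (-0.63) and the STAT inhibitor gene Pias1 (-0.45). Ptpn2 was close to the 2-fold line: with arrays divided by their medians 1 gene of this list passed it, as 1 did with the median over probe sets.

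Other genes that respond to STAT3 lay on both sides of 0. Of 13 measured, 1 was at least 2-fold higher and none lower, with a median of 0.15 that became -0.24 with _x_at probe sets kept and -0.02 once arrays were divided by their medians. In that last setting and after quantile normalization 1 gene was at least 2-fold lower, and with equal macrophage markers 2 were higher. Bcl6, a transcriptional repressor, was 2.84-fold higher and Nfil3, a bZIP transcription factor, had a log2 ratio of 0.86, while Arid5a, an RNA-binding protein that stabilizes Il6 mRNA, had -0.91 and the NF-kB cofactor gene Bcl3 -0.63. The remaining SOCS genes, Socs4 to Socs7, had log2 ratios between -0.54 (Socs7) and 0.33 (Socs5), with -0.18 for Socs6 and -0.12 for Socs4.

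**Figure D4:**
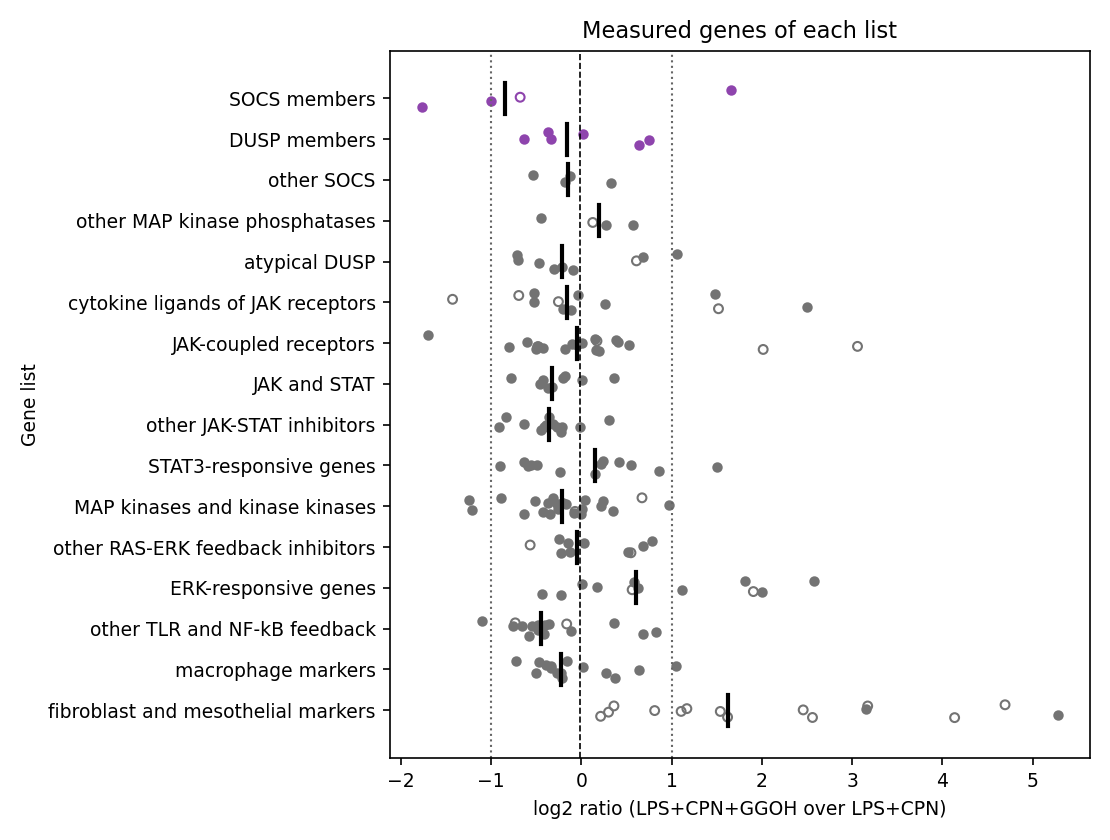
Log2 ratio, LPS+CPN+GGOH over LPS+CPN, of each measured gene by list (purple for the members, grey for other lists, open circles for bounds), with a bar at each list's median, a dashed line at the median of all measured genes (-0.01) and dotted lines at 2-fold. The ERK-responsive list is centred at 0.60 and the fibroblast and mesothelial markers at 1.62, while the JAK and STAT list and the other JAK-STAT inhibitors are centred at -0.32 and -0.36.

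Around the DUSP members, 5 of 12 measured genes that respond to ERK were at least 2-fold higher, against 5.50% of all measured genes. None was lower, against 1.66%, and 7 were neither, with a list median of 0.60. The list was written with earlier results of these data known. Etv5 and Fosb were above the floor only with LPS+CPN+GGOH, so they could only come out higher. The 5 higher genes were the transcription factor genes Egr1 (log2 ratio 2.58), Myc (2.01) and Etv5 (at least 3.75-fold), the early response gene Phlda1 (1.82) and the cyclin gene Ccnd1 (1.12). Of the other 7, the early response genes Ier2 (-0.44) and Egr2 (-0.22) had log2 ratios below 0, Ier3 was at 0.01, and the highest was Fosl1 at 0.62. The list's median was between 0.37 and 0.94 over all settings, and 2 genes passed 2-fold at the 75th-percentile floor and 7 at the 25th. Dusp5 and Dusp6, which are also ERK-induced, had ratios of the same sign but smaller than those 5.

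Of 25 measured MAP kinases and their upstream and downstream kinases, 2 were at least 2-fold lower, against 1.66% of all measured genes. None was higher, against 5.50%, and the median was -0.22. Map3k8 (TPL-2), the kinase that couples LPS to ERK, had 425 with LPS+CPN+GGOH and 1008 with LPS+CPN, a log2 ratio of -1.24. Map3k5 (ASK1), an upstream kinase of JNK and p38, had -1.21, Map3k11 had -0.89 and the scaffold gene Ksr1 0.97. The count of lower genes was 1 with equal macrophage markers, with the median over probe sets, with the pseudocount and at the 75th-percentile floor. It was 3 with arrays divided by their medians, with quantile normalization and at the 25th-percentile floor. With equal macrophage markers and at the 25th-percentile floor, 1 gene was at least 2-fold higher.

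Of the other feedback inhibitors of RAS and ERK, none of 10 passed 2-fold, with 5 log2 ratios above 0 and 5 below and a median of -0.05 whose sign changed with the scaling. With equal macrophage markers 1 was at least 2-fold higher, and at the 25th-percentile floor 1 was lower. Rasal2 had a log2 ratio of 0.78 and Errfi1, an inhibitor of the EGF receptor, one of 0.68. Spry4 was at least 1.46-fold higher and Spry1 at least 1.48-fold lower. The other MAP kinase phosphatases likewise stayed under 2-fold, with Dusp10 at 0.58, Dusp8 at -0.45, Dusp7 at 0.27 and Dusp9 at least 1.09-fold higher. Among atypical dual-specificity phosphatases, which lack the MAP kinase docking domain, Dusp14 had a log2 ratio of 1.06, the only 1 of 9 past 2-fold, and no gene of the list passed it under 5 of 9 other settings (arrays divided by their medians, quantile normalization, lowess, the 75th-percentile floor and the pseudocount), while 2 did at the 25th-percentile floor. Dusp28 (-0.72), Dusp3 (-0.70) and Dusp12 (0.68) followed.

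Feedback inhibitors of Toll-like receptor and NF-kB signalling that belong to neither family had 13 of 16 log2 ratios below 0 and a median of -0.45. Below 0 were also 5918 of 11518 measured genes and 10 of 15 macrophage markers. With equal macrophage markers the median of this list was -0.22. Nfkbie, an inhibitor of NF-kB, was the only 1 past 2-fold (-1.10), and no gene of the list was 2-fold lower once macrophage markers were equalised, where 1 was 2-fold higher, or once probe sets were summarised by their median. At the 25th-percentile floor 2 were lower. The deubiquitinase gene Cyld had -0.75, Trib1 was at least 1.66-fold lower, and Zfp36l1, an mRNA decay factor, had 0.82. Dusp1, at -0.63, lay near the median of this list.

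Markers of other cells and RNA measures also differed between the arrays. Of 15 measured fibroblast and mesothelial markers, 11 were at least 2-fold higher with LPS+CPN+GGOH, against 5.50% of all measured genes. Their summed signal was 21036 with LPS+CPN+GGOH and 1227 with LPS+CPN, and only Col1a2 and Dcn were above the floor with LPS+CPN. The other measured markers passed the floor only with LPS+CPN+GGOH, so they could only come out higher, which limits the comparison with all genes. Col1a2 was 38.9-fold higher and Dcn had a log2 ratio of 3.16, while Col3a1 was at least 25.9-fold, Col1a1 at least 17.6-fold and Wt1 at least 9.02-fold higher. Pdgfra, Upk1b, Msln, Krt19, Lrrn4 and Pdgfrb were higher by at least 5.90-fold down to at least 2.15-fold. The 15 macrophage markers, all above the floor on both arrays, had a median log2 ratio of -0.22 and a summed signal of 217100 with LPS+CPN+GGOH and 248473 with LPS+CPN, so the defining markers of the labelled cell type were present on both. Itgam was the only 1 of them past 2-fold, with a log2 ratio of 1.05, followed by Mertk (-0.73), Aif1 (0.64) and Csf1r (-0.50). Lymphocyte markers were under the floor on both arrays for all 5 genes, including Cd3e and Cd79a. Of the granulocyte and mast cell markers 1 of 8 was measured (S100a8, log2 ratio -0.95), and of the endothelial markers 1 of 4 (Kdr, -0.03). The ratio of 5' to 3' signal was 1.05 with LPS+CPN+GGOH and 0.504 with LPS+CPN for Gapdh, and 0.803 with LPS+CPN+GGOH and 0.409 with LPS+CPN for Actb, so the RNA measured also differed in its 5' share. In bulk RNA, fewer cells of a type and less RNA per cell cannot be told apart. Which cells carried the signals of Socs2, Dusp5, Dusp6, Ghr, Osmr or Il6, and the part of these markers and of the 5' share in any value above, was not tested. With the macrophage markers set to a median ratio of 0, Socs3 had a log2 ratio of -1.54, Socs2 one of 1.88 and Dusp1 one of -0.41. That scaling shifts all genes above the floor on both arrays by the same amount. It cannot take out signal that came from other cells.

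**Figure D5:**
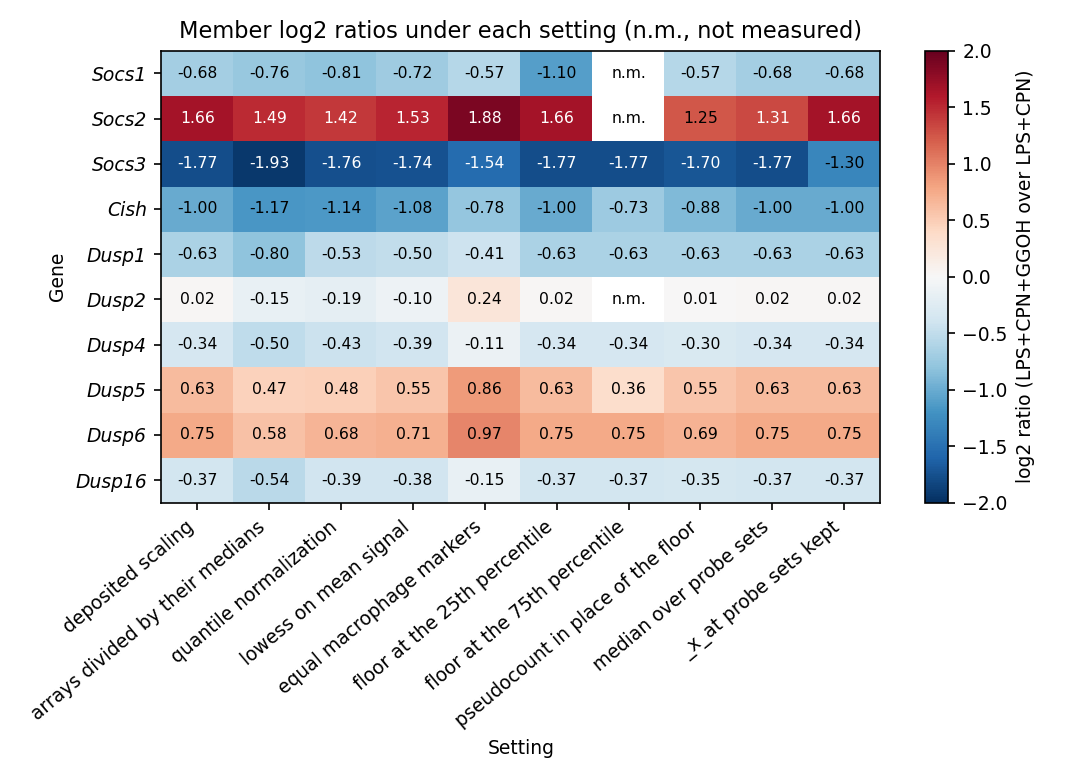
Log2 ratio, LPS+CPN+GGOH over LPS+CPN, of each member (rows) under the deposited scaling and 9 other settings (columns), as numbers and as colour (red higher, blue lower; n.m., not measured because both signals were under the floor). Socs3 stays between -1.93 and -1.30 and Socs2, where measured, between 1.25 and 1.88, while Dusp2 changes sign between columns.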

How the data were processed

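The values deposited for the 2 arrays were linear signal intensities of 45101 probe sets, including 64 controls. Per the submitters' processing notes the authors used MAS5, with version and scaling target not stated there. Averaged over the central 96% of probe sets, the signal came to 500.004 for both arrays. No detection calls were used, so a dim signal may be background, and precision is limited by having 1 array per condition.

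Names came from the platform annotation, which gave 1 gene symbol for 34945 of the 45037 non-control probe sets, several for 932 and none for 9160. All 10 member symbols matched a RefSeq gene table (GRCm38.p6). Gene values left out 2038 probe sets of the _x_at class. Signals under the floor were set to it, a gene under it on both arrays was not measured, and a gene under it on 1 array gave a bound ("at least"). The brightest probe set by mean log2 signal stood for each gene, and ratios are LPS+CPN+GGOH over LPS+CPN. There is no test and no p-value. All members were named, and from each other list the 4 measured genes with the largest ratios in either direction plus those past 2-fold. A few further genes (Stat3, Osm, Il11, Clcf1, Ier2, Egr2, Ier3 and Fosl1, and 2 lymphocyte markers under the floor) were named beside a count or a member, all but Stat3 after their values were seen. Members, lists and motifs were chosen with earlier results of these data known, and the motifs after the member values were seen. Some listed genes were not analysed here. The lists are not independent, and Il4ra stood in both the receptor and the STAT3-responsive list.

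Other settings were division by array medians, quantile normalization, lowess (span 0.4), equal macrophage markers, a floor at the 25th or at the 75th percentile, adding the floor as a pseudocount, the median over probe sets, _x_at probe sets kept, and 1.5-fold in place of 2-fold. The steps were tested on simulated data, with less noise than was seen between real probe sets of a gene. Changes were put only into genes well above the floor, so dim genes such as Socs1 and Socs2 were not covered. Python 3.11.15, pandas 2.3.3, numpy 2.4.6 and statsmodels 0.14.6 were used.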

Additional observations from a re-analysis of the deposited data

How the results depend on the processing

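Under 9 other settings, 86 of 87 log2 ratios of single members moved by less than 0.45, the SD of probe sets for the same gene. The exception was Socs3 with _x_at probe sets kept, at -1.30. This count is a weak check, since much of it was fixed in advance. With 1 probe set each, 7 members could not move when probe sets were chosen otherwise. A moved floor leaves genes above it on both arrays as they were, and an array scaled by a constant shifts all such genes alike. Socs3 passed 2-fold under all 10 settings, Socs2 under the 9 that measured it, and Cish under 7 of 10. The count of members at least 2-fold lower was 2, and became 3 with the floor at the 25th percentile, where Socs1 also passed, 1 with equal macrophage markers, with the floor at the 75th percentile and with the pseudocount, where Cish dropped out, and 4 at 1.5-fold. The count of those higher was 1, and became 0 with the floor at the 75th percentile, where Socs2 was not measured and 7 members remained, and 3 at 1.5-fold. The median of the members ranged from -0.52 to -0.13, and relative to the median of all measured genes from -0.38 to -0.31. The DUSP median turned to 0.06 with equal macrophage markers. Dividing the arrays by their medians put the median of all genes at -0.17, and equal macrophage markers put it at 0.20. Of all genes past 2-fold, the higher ones made up 76.8% at the deposited scaling, 61.4% once arrays were divided by their medians, 62.5% under quantile normalization and 91.2% with equal macrophage markers. A floor at the 25th percentile gave 1658 higher and 1127 lower genes, one at the 75th gave 126 and 88, and the deposited setting 634 and 191. Of 143 medians of gene lists, 142 moved by less than the SD, a count limited in part in the same way. The exception was the median of the fibroblast and mesothelial markers, which became 3.16 with the floor at the 25th percentile. Signals near the floor limit Socs1 and Socs2. No paired analysis was possible because each group has 1 array.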
